A study of Mus musculus with 4 samples.

Results

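Integrin chains were followed in antigen-specific CD4 T cells of the mouse, in T follicular helper (Tfh) cells and in activated cells that had not taken the Tfh fate (non-Tfh). The 10 genes were chosen by symbol: the alpha chain genes Itga1, Itga2, Itga4, Itgae, Itgal, Itgam and Itgav and the beta chain genes Itgb1, Itgb2 and Itgb7. They are 10 of the 39179 gene identifiers counted in each library, and the annotation holds 17 other integrin chain genes. Both groups came from OT-II mice, whose T cells carry a transgenic receptor for ovalbumin, and the cells carried Thy-1.1 in C57BL/6 hosts given nitrophenol-coupled ovalbumin under the skin. On day 8 the transferred CD44hi cells of pooled inguinal lymph nodes were sorted as CXCR5+ PD-1+ (Tfh) or CXCR5- PD-1- (non-Tfh). Each group had 2 libraries, named T32 and T53 in both, and the labels give neither the age of the animals nor what these names mark. All cells therefore share 1 transgenic receptor, 1 antigen and 1 day, and the groups differ in the sort gate.

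Integrins are adhesion receptors made of 1 alpha and 1 beta chain, which reach the cell surface only as a pair. In T cells LFA-1, the pair of the Itgal and Itgb2 products, binds ICAM-1 on other cells and holds the contact with antigen-presenting cells. The Itga4 product pairs with that of Itgb1 to bind VCAM-1 and fibronectin, or with that of Itgb7 to bind MAdCAM-1 of gut vessels. The Itgae product pairs with that of Itgb7 and binds E-cadherin of epithelium. The products of Itga1 and Itga2 pair with that of Itgb1 as collagen receptors, that of Itgam pairs with that of Itgb2 on myeloid cells, and that of Itgav pairs with several beta chains.

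Tfh cells held more Itgal and less Itga4, Itgb1, Itgb7, Itgae, Itga2 and Itgam mRNA than non-Tfh cells, while Itgb2 and Itgav did not pass the test. Of the 9 chains that had enough counts to be tested, 1 was higher and 6 were lower in Tfh cells at an adjusted p of 0.05 (edgeR quasi-likelihood test, Benjamini-Hochberg over 11702 genes). Of all genes tested 8.49% passed, 4.47% higher and 4.02% lower. Itgae, Itga2 and Itgam were low and passed the count filter through the non-Tfh libraries, and Itga1 had counts in non-Tfh cells only and was not tested. The median log2 fold change of the 9 was -1.24, against -0.0054 over all genes tested, and since it includes these 3 chains it is a description only. It was -0.49 over the 6 chains with at least 5 CPM in 2 libraries and -2.22 over the 10 chains that could be tested without Tfh T53. The number called was 3 without Tfh T32 and 2 without Tfh T53. RNA was taken from sorted populations, so fewer cells that express a chain and less RNA per cell cannot be told apart.

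**Figure D1:**
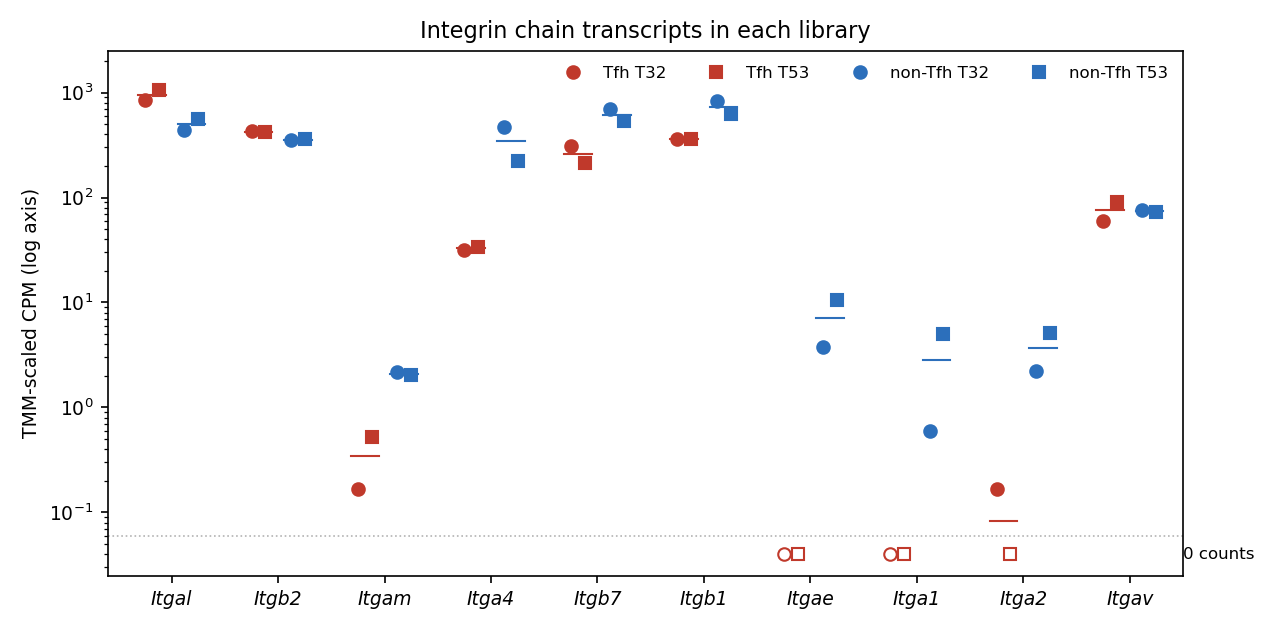
TMM-scaled CPM (counts scaled to library size, log axis) of the 10 chains in each library, circles for T32 and squares for T53, with Tfh in red left of non-Tfh in blue. Lines are group means, and open symbols under the dotted line mark libraries with 0 counts. Itgal lies higher and Itga4, Itgb7 and Itgb1 lower in both Tfh libraries, and Itgae and Itga1 have no counts in Tfh cells.

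The promoters of Itga4, Itgb1 and Itgb7 are shown because these 3 genes, whose products form α4β1 and α4β7, were all lower in Tfh cells. RefSeq promoter windows of GRCm38.p6, 250 bases before to 50 after the start, were at hand for 7 of the 10 genes. They were searched on both strands for TGTGGT (core of RUNX sites), CGGAAG (ETS), GGGCGG (GC box) and CACCC (bound by Krüppel-like factors), and capitals mark the matches. The Itga4 window is chr2:79255176-79255475 (+ strand), that of Itgb1 is chr8:128685404-128685703 (+ strand) and that of Itgb7 is chr15:102231886-102232185 (- strand), each read 5′ to 3′ along the gene.
Itga4: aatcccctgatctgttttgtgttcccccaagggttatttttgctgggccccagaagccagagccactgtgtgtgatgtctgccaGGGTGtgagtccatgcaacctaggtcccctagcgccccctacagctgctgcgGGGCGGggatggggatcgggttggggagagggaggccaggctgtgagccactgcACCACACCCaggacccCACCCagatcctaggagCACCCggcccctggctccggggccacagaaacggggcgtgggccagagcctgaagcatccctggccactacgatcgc
Itgb1: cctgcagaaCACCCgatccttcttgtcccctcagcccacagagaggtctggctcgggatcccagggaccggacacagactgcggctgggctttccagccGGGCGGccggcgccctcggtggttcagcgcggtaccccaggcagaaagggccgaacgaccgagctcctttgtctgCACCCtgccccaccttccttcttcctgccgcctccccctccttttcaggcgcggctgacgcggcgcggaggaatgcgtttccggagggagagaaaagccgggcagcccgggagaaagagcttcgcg
Itgb7: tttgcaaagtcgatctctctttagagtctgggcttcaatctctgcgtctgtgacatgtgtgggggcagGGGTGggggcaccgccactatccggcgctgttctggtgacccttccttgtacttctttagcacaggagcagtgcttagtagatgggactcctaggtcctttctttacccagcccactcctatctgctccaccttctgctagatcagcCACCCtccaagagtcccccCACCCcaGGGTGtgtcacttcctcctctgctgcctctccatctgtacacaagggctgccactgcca

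The Itga4 window held 4 CACCC matches, 1 GC box and 1 RUNX match, whose first base lies at position -60 and which overlaps the CACCC match at position -56 (the first transcribed base is 1). The Itgb7 window held 4 CACCC matches, and the Itgb1 window held 2 with 1 GC box. Among 32851 windows of the same length 57.5% held CACCC, 35.7% the GC box, 16.9% the ETS letters and 16.8% the RUNX letters, on either strand. CACCC is therefore common, and a match describes letters and not a bound site. Each of the 7 windows held CACCC, also that of Itgav, a gene that did not pass the test. The GC box was in all of them except those of Itga1 and Itgb7. Of the 7 windows, that of Itga4 held the RUNX letters and that of Itgav, at position -55, the ETS letters. The RefSeq start matched the 5′ end of the GENCODE gene for 6 of the 7 genes and lay 9 bases inside it for Itgb7.

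LFA-1 chains came first in level in Tfh cells. Itgal (ENSMUSG00000030830, GRCm38 chromosome 7, 127296260 to 127335138) encodes the alpha L chain CD11a. It measured 847 CPM in Tfh T32 and 1057 CPM in Tfh T53, against 443 and 564 CPM in the non-Tfh libraries T32 and T53. Both Tfh libraries lay above both non-Tfh libraries, and the fold was nearly the same within each library name, 1.91 in T32 and 1.87 in T53. The gene rose 1.89-fold in Tfh cells (log2 fold change 0.92 ± 0.184 SE, n = 2 per group, edgeR adjusted p = 0.0328). The call was lost without Tfh T53 (edgeR adjusted p = 0.0987) and without non-Tfh T32 (0.087).

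Itgb2 (ENSMUSG00000000290, chromosome 10, 77530252 to 77565708) encodes CD18, the beta chain that LFA-1 and Mac-1 share. It measured 429 and 417 CPM in Tfh T32 and T53, against 353 and 359 CPM in non-Tfh T32 and T53. The groups did not overlap, but the difference was small and did not pass the test (log2 fold change 0.25 ± 0.117, edgeR adjusted p = 0.285).

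Set against its own partner, Itgal was also higher in Tfh cells. Per kb of exon the ratio of Itgal to Itgb2 was 0.918 and 1.18 in Tfh T32 and T53, against 0.582 and 0.731 in non-Tfh T32 and T53. The mean log2 ratio differed by 0.67, and a ratio within 1 library does not depend on how libraries are scaled. With 2 libraries against 2 the exact permutation test cannot go below p = 0.333, which is the value it gave here (two-sided; 0.4 after Benjamini-Hochberg adjustment over 6 ratios).

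Itgam (ENSMUSG00000030786, chromosome 7, 128062640 to 128118491), the alpha chain CD11b of Mac-1, was close to the detection floor. It had 2 and 3 counts in Tfh T32 and T53, against 29 and 18 counts in non-Tfh T32 and T53, or 0.168 and 0.524 CPM against 2.16 and 2.02 CPM. The gene fell 6.89-fold in Tfh cells (log2 fold change -2.78 ± 0.605, edgeR adjusted p = 0.042), with no overlap between groups.

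This call was the least stable of the 7, since leaving out any library ended it. The log2 fold change was -1.97 (adjusted p = 0.261) without Tfh T32 and -3.55 (0.067) without Tfh T53, in edgeR. It was -2.72 (0.125) without non-Tfh T32 and -2.82 (0.0777) without non-Tfh T53. DESeq2 (0.126) and limma-voom (0.052) did not call it either. Macrophage and monocyte markers, 10 genes, summed to 6.28 and 8.03 CPM in Tfh cells, against 3.65 and 8.77 CPM in non-Tfh cells. Cd14 had no counts in any library and Csf1r had 0 and 2 counts in Tfh cells, against 0 and 5 in non-Tfh cells. Cd68 lay higher in both Tfh libraries, at 3.69 and 2.45 CPM, against 2.31 and 0.787 CPM in non-Tfh cells. Lyz2 overlapped between groups, with 13 and 10 counts in Tfh cells, against 2 and 39. Siglec1 also overlapped, at 0.922 and 1.92 CPM, against 0.968 and 2.14 CPM. The 8 dendritic cell markers, in contrast, summed to 2.85 and 3.84 CPM in Tfh cells, against 8.79 and 9.22 CPM in non-Tfh cells. Of these H2-Ab1 had 1 and 5 counts in Tfh cells, against 26 and 32 counts in non-Tfh cells. Batf3 had 2 and 0 counts, against 50 and 6, and Zbtb46 had 2 and 6, against 19 and 18. Flt3 overlapped between groups, at 1.93 and 1.75 CPM in Tfh cells, against 1.27 and 1.80 CPM in non-Tfh cells. Xcr1 also overlapped, with 6 and 1 counts, against 5 and 10. Cd209a had 0 and 0 counts, against 1 and 0, while Clec9a and Siglech had none in any library. The part of dendritic cells in the Itgam counts was not tested. In the annotation used here Itgam shares 3450 exonic bases with the gene model Gm49368 on the same strand, so its counts depend on how such models were treated.

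Among the members with more than 3 counts in each group, the largest change was that of Itga4 (ENSMUSG00000027009, chromosome 2, 79255426 to 79333123), the alpha 4 chain CD49d. It measured 31.3 and 34.1 CPM in Tfh T32 and T53, against 467 and 223 CPM in non-Tfh T32 and T53. The Tfh libraries were alike, and the non-Tfh libraries differed 2.09-fold, with T32 the higher. Itga4 fell 10.6-fold in Tfh cells (log2 fold change -3.41 ± 0.398, n = 2 per group, edgeR adjusted p = 0.0127).

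Within T32 the non-Tfh level was 14.9 times and within T53 6.56 times the Tfh level. The call was lost without Tfh T32 (edgeR adjusted p = 0.13) and without Tfh T53 (0.164). It was kept with non-Tfh T53 as the lone non-Tfh library, at a log2 fold change of -2.77. Itga4 shares 1124 exonic bases with Cerkl on the opposite strand, and whether reads were counted by strand is not given in the sources used here. Cerkl had 69 and 38 counts in Tfh cells, against 68 and 36 in non-Tfh cells.

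Both beta chains that pair with alpha 4 were lower in Tfh cells, by less. Itgb1 (ENSMUSG00000025809, chromosome 8, 128685654 to 128733200), the beta 1 chain CD29, measured 364 and 363 CPM in Tfh T32 and T53, against 839 and 619 CPM in non-Tfh T32 and T53. It fell 2.01-fold (SE of the log2 fold change 0.174, edgeR adjusted p = 0.0203). Every Tfh value was below every non-Tfh value for this gene. The call was lost without Tfh T32 (edgeR adjusted p = 0.0612) and without Tfh T53 (0.068).

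Itgb7 (ENSMUSG00000001281, chromosome 15, 102215995 to 102231944), the beta chain of the gut-homing integrin and of CD103, measured 307 and 211 CPM in Tfh T32 and T53, against 696 and 533 CPM in non-Tfh T32 and T53. It fell 2.37-fold (log2 fold change -1.24 ± 0.225, edgeR adjusted p = 0.0256), and the groups did not overlap. The call was lost without Tfh T53 (edgeR adjusted p = 0.0557) and without non-Tfh T32 (0.055).

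The alpha 4 chain was lower relative to either partner. Per kb of exon the ratio of Itga4 to Itgb7 was 0.0202 and 0.032 in Tfh T32 and T53, against 0.133 and 0.083 in non-Tfh T32 and T53. The ratio of Itga4 to Itgb1 was 0.0252 and 0.0274 in Tfh cells, against 0.162 and 0.105 in non-Tfh cells. The mean log2 ratios differed by -2.05 and -2.32, each with exact permutation p = 0.333, the smallest possible (0.4 adjusted over 6 ratios). For both ratios every Tfh value lay below every non-Tfh value.

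The balance of both beta chains, in contrast, overlapped between groups. The ratio of Itgb7 to Itgb1 was 1.24 and 0.855 in Tfh T32 and T53, against 1.22 and 1.27 in non-Tfh T32 and T53. The mean log2 ratio differed by -0.27 (exact permutation p = 0.667, also 0.667 adjusted), and by -0.54 to -0.0007 with 1 library left out.

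**Figure D2:**
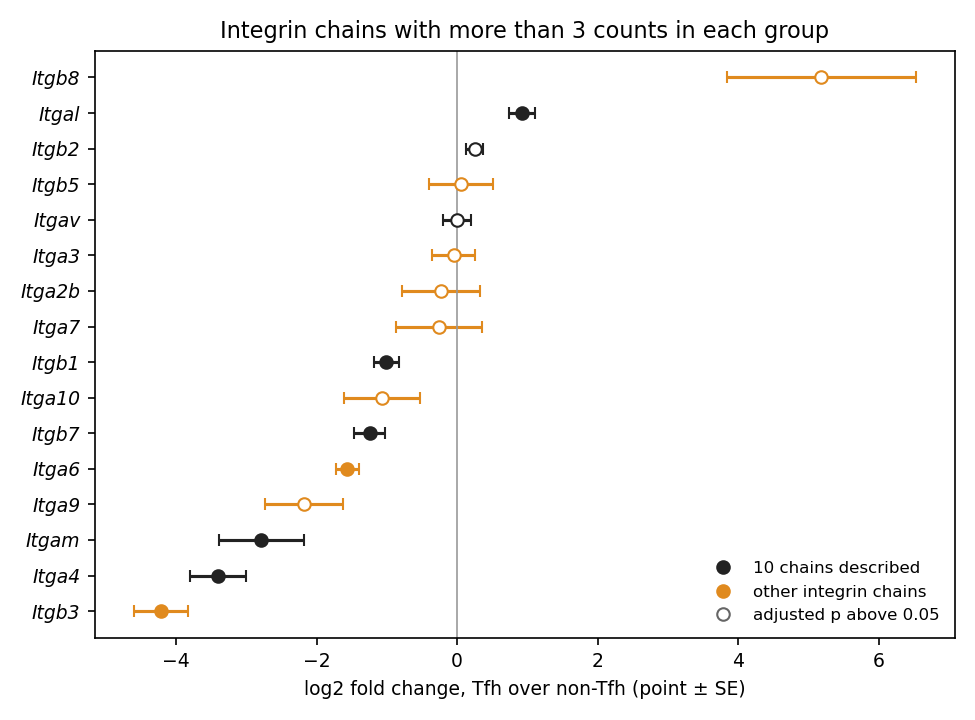
Log2 fold change of Tfh over non-Tfh with its standard error for each tested integrin chain with more than 3 counts in each group, black for the 10 chains described and orange for other integrin chains; open symbols did not pass an adjusted p of 0.05. Itga4 (-3.41) and Itgb3 (-4.21) lie farthest left among the filled symbols and Itgal (0.92) is the filled symbol on the right, while the open symbol of Itgb8 (5.18) has the widest error.

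Itgae (ENSMUSG00000005947, chromosome 11, 73090583 to 73147446), the alpha E chain CD103, was counted in non-Tfh cells only. It had no counts in either Tfh library, against 51 and 93 counts in the non-Tfh libraries T32 and T53, or 3.80 and 10.5 CPM. Against a floor of 3 counts over the Tfh libraries Itgae was at least 42.0-fold lower in Tfh cells. The bound was 61.5-fold with non-Tfh T53 alone and 22.4-fold with non-Tfh T32 alone. The gene passed the test (edgeR adjusted p = 0.0221), and the call was lost without Tfh T32 (0.0576).

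Of Treg genes that often go with CD103, Foxp3 had 0 and 1 counts in Tfh cells, against 13 and 22 counts in non-Tfh cells. Summed over 7 Treg markers the level was 668 and 883 CPM in Tfh cells, against 418 and 424 CPM in non-Tfh cells. Ikzf2, which encodes Helios, gave 578 and 793 CPM of it in Tfh cells, against 185.5 and 216 CPM in non-Tfh cells. Gpr83 lay higher in both Tfh libraries, at 12.5 and 8.91 CPM, against 7.23 and 7.31 CPM in non-Tfh cells. Il10 had 4 and 0 counts in Tfh cells, against 0 and 2 counts in non-Tfh cells. Of the other members Il2ra, Capg and Ctla4 lay lower in both Tfh libraries, as Foxp3 did. Il2ra measured 2.35 and 2.10 CPM in Tfh cells, against 70.6 and 38.3 CPM in non-Tfh cells, Capg 14.6 and 9.78 CPM, against 68.8 and 51.5 CPM, and Ctla4 60.5 and 68.6 CPM, against 85.0 and 108 CPM. The part of Foxp3-expressing cells in the Itgae counts was not tested. Haspin overlaps Itgae on the opposite strand and shares no exonic base with it. It measured 10.7 and 12.8 CPM in Tfh cells, against 12.4 and 8.99 CPM in non-Tfh cells.

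The collagen receptor genes Itga1 (ENSMUSG00000042284, chromosome 13, 114953096 to 115101964) and Itga2 (ENSMUSG00000015533, chromosome 13, 114833081 to 114932100) lie 21.0 kb apart. Itga1, which encodes CD49a, had no counts in Tfh cells, against 8 and 45 counts in non-Tfh T32 and T53. It was at least 16.6-fold lower in Tfh cells against the floor of 3 counts. With non-Tfh T53 alone this bound was 29.8-fold and with non-Tfh T32 alone 3.51-fold, so the size of the difference rests on non-Tfh T53. Itga1 shares 685 exonic bases with the gene model Gm49395 on the same strand.

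Itga2, which encodes CD49b, had 2 and 0 counts in Tfh T32 and T53, against 30 and 46 counts in non-Tfh T32 and T53. The pooled ratio was 30.1 in favour of non-Tfh cells, with an exact 95% binomial interval of 8.04 to 253 that covers counting error only. Itga2 passed the test (edgeR adjusted p = 0.0221). It also passed with each library left out in turn (edgeR adjusted p up to 0.0432), where the spread is estimated from the group that keeps both libraries. The fitted log2 fold change, which depends on the prior count, was -8.09 without Tfh T32 and -4.19 without non-Tfh T53, against -4.88 with all libraries. Within the non-Tfh group Itga1, Itga2 and Itgae were each higher in T53 than in T32.

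Markers of NK and CD8 T cells, which can express these chains, were looked up beside them. Ncr1 and Klra8 had no counts in any library and Cd8a had 0 and 0 counts in Tfh cells, against 2 and 0 in non-Tfh cells. The other CD8 marker, Cd8b1, had 74 and 22 counts in Tfh cells, against 56 and 32 counts in non-Tfh cells. Gzma had 67 and 5 counts in Tfh cells, against 55 and 186 counts in non-Tfh T32 and T53, and Klrk1 had 6 and 0 counts, against 34 and 117. Over 6 NK markers the sum was 50.7 and 58.2 CPM in Tfh cells, against 26.4 and 46.5 CPM in non-Tfh cells. Klrb1c gave 44.6 and 57.3 CPM of this sum in Tfh cells, against 19.7 and 12.4 CPM in non-Tfh cells, so in T53 the other NK markers together were lower in Tfh cells. The part of cells with these transcripts in the Itga1, Itga2 and Itgae counts was not tested.

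Itgav (ENSMUSG00000027087, chromosome 2, 83724397 to 83806916), the alpha V chain CD51, overlapped between groups. It measured 60.1 and 90.8 CPM in Tfh T32 and T53, against 76.4 and 73.2 CPM in non-Tfh T32 and T53. The lowest and the highest value were both from Tfh libraries. The log2 fold change was 0.0022 ± 0.202 (edgeR adjusted p = 0.997), and it ran from -0.30 to 0.28 over the alternatives. Relative to Itgb1, per kb of exon, Itgav was higher in Tfh cells, with ratios of 0.0628 and 0.0949, against 0.0346 and 0.0449 in non-Tfh cells (exact permutation p = 0.333, 0.4 adjusted).

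Levels of different chains were compared per kb of exon, taking all exons of a gene. Among 18 alpha chain genes Itgal came first in both groups, averaging 145 ± 22.6 CPM per kb (SD, n = 2) in Tfh cells, against 76.6 ± 13.1 (SD, n = 2) in non-Tfh cells. In Tfh cells Itgav (7.02 ± 2.02), Itga6 (3.76 ± 0.607) and Itga4 (2.34 ± 0.138) followed. In non-Tfh cells Itga4 was second (24.7 ± 12.3), ahead of Itga6 (11.2 ± 1.54) and Itgav (6.96 ± 0.214). The lower non-Tfh value of Itga4, 16.0, was above both values of Itga6, 12.2 and 10.1. By the longest transcript instead, Itga4 was again above Itga6 in both non-Tfh libraries, at 47.8 against 25.6 in T32 and 22.9 against 21.1 in T53. By that length Itga6 (8.77) lay just above Itgav (8.52) in Tfh T32, so the order of these 2 chains there rests on the length used. Itgal made up 89.1 and 90.5% of the summed alpha chain level in Tfh T32 and T53, against 53.1 and 68.0% in non-Tfh T32 and T53. Itga4 made up 1.55 and 1.37% in Tfh cells, against 26.3 and 12.6% in non-Tfh cells.

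Among 9 beta chain genes the order differed between groups. In Tfh cells Itgb2 came first with 139 CPM per kb ± 2.63, and the order of Itgb7 (93.5 ± 24.6) and Itgb1 (89.1 ± 0.024) differed between the libraries, with Itgb7 the higher in T32 and Itgb1 the higher in T53. In non-Tfh cells Itgb7 (222 ± 41.5) and Itgb1 (179 ± 38.0) came first, with Itgb7 above Itgb1 by 1.22 and 1.27 times within T32 and T53, and Itgb2 followed with 117 ± 1.27. Itgb2 made up 41.0 and 44.3% of the summed beta chain level in Tfh T32 and T53, against 19.7 and 23.9% in non-Tfh T32 and T53. Summed per kb, beta chains exceeded alpha chains 2.37 and 1.74 times in Tfh cells, against 4.63 and 3.89 times in non-Tfh cells.

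**Figure D3:**
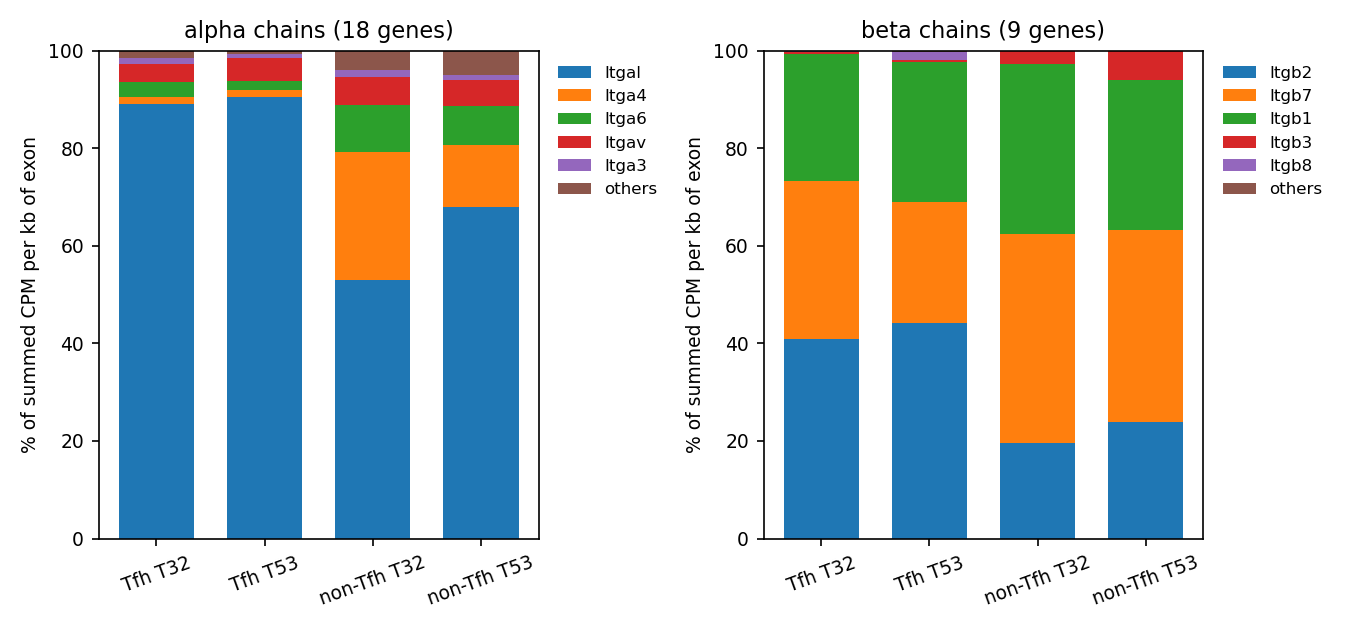
Share of each chain in the summed CPM per kb of exon of 18 alpha chain genes (left) and 9 beta chain genes (right) in each library, Tfh libraries left of non-Tfh. Itgal fills 89.1 and 90.5% of the alpha bars of Tfh cells, against 53.1 and 68.0% of those of non-Tfh cells. Itgb2 fills 41.0 and 44.3% of the beta bars of Tfh cells, against 19.7 and 23.9% of those of non-Tfh cells.

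The 10 chains took 0.197 and 0.217% of all counts in Tfh T32 and T53, against 0.29 and 0.247% in non-Tfh T32 and T53. They held 96.4 and 95.1% of the counts of all 27 integrin chain genes in Tfh cells, against 92.4 and 89.3% in non-Tfh cells. Of the 17 other chain genes 10 were tested, of which 2 fell in Tfh cells, none rose and 8 did not pass (median log2 fold change -0.66). The share called was above the 8.49% of all genes tested. Itga5 had 2 and 1 counts in Tfh cells, against 14 and 13 counts in non-Tfh cells. Like Itga9 and Itga10, it passed the count filter through the non-Tfh libraries, while Itgb8 passed it through the Tfh libraries. The median of these other chains is therefore a description only.

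Itgb3 (chromosome 11, 104608000 to 104670476), a beta chain that pairs with alpha V to bind vitronectin, measured 6.37 and 7.69 CPM in Tfh cells, against 88.7 and 168 CPM in non-Tfh cells. It fell 18.5-fold (log2 fold change -4.21 ± 0.386, edgeR adjusted p = 0.00587), and the call was lost without Tfh T32 (0.0607) and without Tfh T53 (0.0559). Beside an Itgav level that overlapped between groups, its partner Itgb3 was thus lower in Tfh cells. Of 6 platelet markers, from cells rich in this chain, Pf4, Ppbp, Gp9 and Gp6 had no counts in any library. Gp1bb had 1 and 0 counts in Tfh cells, against 0 and 0 counts in non-Tfh cells. Itga2b had 15 and 4 counts in Tfh cells, against 21 and 7 counts in non-Tfh cells. The part of platelets in the Itgb3 counts was not tested. Itga6 (chromosome 2, 71745616 to 71858416), a laminin receptor chain, measured 37.8 and 30.0 CPM in Tfh cells, against 110 and 90.8 CPM in non-Tfh cells. It fell 2.95-fold (log2 fold change -1.56 ± 0.167, edgeR adjusted p = 0.00438) and passed the test in each of the 14 alternatives.

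**Figure D4:**
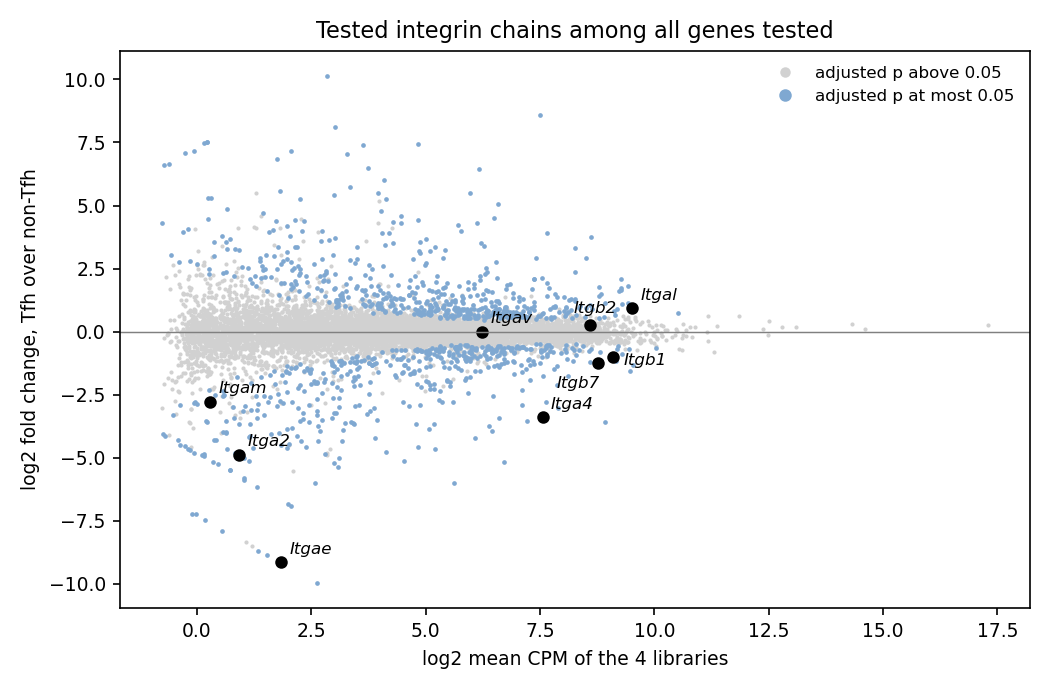
Log2 fold change of Tfh over non-Tfh against the log2 mean CPM of the 4 libraries for all 11702 genes tested, grey for an adjusted p above 0.05 and blue for the others, with the 9 tested chains in black. Itgal, Itgb1, Itgb2 and Itgb7 lie among the abundant genes, and the fitted value of Itgae, which had no Tfh counts, depends on the prior count and is not a measured fold.

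Of 29 genes that switch integrins on or link them to the cell skeleton 26 were tested, of which 6 fell in Tfh cells, none rose and 20 did not pass (median log2 fold change 0.036). The share called was 23.1%, against 8.49% of all genes tested. Without a count filter 3 rose and 8 fell, and without Tfh T53 the number called was 3. Talin and kindlin, which bind beta chain tails, are encoded by Tln1 and Fermt3. Tln1 measured 1178 and 1353 CPM in Tfh cells, against 1049 and 1128 CPM in non-Tfh cells, and Fermt3 measured 271 and 247 CPM, against 247 and 228 CPM. Neither passed the test (edgeR adjusted p = 0.469 and 0.624).

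The activation genes that fell included regulators of the GTPase Rap1, which drives LFA-1 activation. Rasgrp2, a Rap1 exchange factor, measured 42.4 and 20.8 CPM in Tfh cells, against 255 and 232 CPM in non-Tfh cells (log2 fold change -2.91 ± 0.332, edgeR adjusted p = 0.0106). Rap1gap2, which turns Rap1 off, measured 1.84 and 1.22 CPM in Tfh cells, against 20.9 and 18.9 CPM in non-Tfh cells (-3.62 ± 0.266, edgeR adjusted p = 0.00138). Genes that act on Rap1 in both directions were thus among the members that fell.

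Vcl, which encodes vinculin, had 3 and 5 counts in Tfh cells, against 139 and 61 counts in non-Tfh cells, and passed the count filter through the non-Tfh libraries. It had a log2 fold change of -4.15 ± 0.549 (edgeR adjusted p = 0.00891), and Rapgef6, another exchange factor, one of -0.89 ± 0.145 (0.0167). The call of Rasgrp2 was lost without non-Tfh T32 (edgeR adjusted p = 0.121) and without non-Tfh T53 (0.15). Rapgef6 lost its call without Tfh T53 (0.0798). With Tfh T32 left out, Vcl had a log2 fold change of -3.29 and Rasgrp2 one of -3.54, and with Tfh T53 left out Vcl had one of -5.03.

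Of 24 genes of adhesion signalling 20 were tested, of which 2 rose and 2 fell in Tfh cells and 16 did not pass (median log2 fold change 0.066). As for the activation genes, the share called was above the 8.49% of all genes tested. Fyn, a kinase of the Src family, measured 826 and 877 CPM in Tfh cells, against 385 and 408 CPM in non-Tfh cells (log2 fold change 1.10 ± 0.13, edgeR adjusted p = 0.00597). Ptk2, the focal adhesion kinase, measured 4.27 and 4.37 CPM, against 1.27 and 1.57 CPM (1.61 ± 0.351, edgeR adjusted p = 0.0424). Actn1, an actin crosslinker, fell with a log2 fold change of -1.25 ± 0.159 (edgeR adjusted p = 0.00778), and Dock2, a Rac activator, with one of -0.67 ± 0.134 (0.033). The calls of Ptk2 and Dock2 were lost with any 1 library left out (edgeR adjusted p from 0.0834 to 0.16 and from 0.0775 to 0.152), and that of Ptk2 also with DESeq2 (0.117) and with library totals alone (0.051).

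Integrin ligands were mostly below the count filter. Of 25 genes 7 were tested, 2 fell in Tfh cells, none rose and 5 did not pass (median log2 fold change -0.036). The share called was 28.6%, against 8.49% of all genes tested. Icam1, the ligand of LFA-1, measured 46.6 and 36.7 CPM in Tfh cells, against 30.4 and 32.04 CPM in non-Tfh cells, and did not pass (edgeR adjusted p = 0.183; chosen after its values were seen). Lamc1, a laminin chain, measured 2.68 and 2.79 CPM in Tfh cells, against 24.6 and 16.6 CPM in non-Tfh cells (log2 fold change -2.92 ± 0.282, edgeR adjusted p = 0.003). Vcam1, the ligand of α4β1, had 2 and 1 counts in Tfh cells, against 36 and 14 counts in non-Tfh cells. Vcam1 too passed the count filter through the non-Tfh libraries. Its pooled ratio was 13.2 in favour of non-Tfh cells (exact 95% counting interval 4.26 to 66.1; edgeR adjusted p = 0.0222). The Vcam1 call was lost when Tfh T32 (edgeR adjusted p = 0.129), Tfh T53 (0.0788) or the non-Tfh library T32 (0.105) was left out.

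Of 14 other adhesion and homing receptors, all tested, 1 rose and 4 fell in Tfh cells and 9 did not pass (median log2 fold change -0.34). The share called was 35.7%, against 8.49% of all genes tested. Cd226, which associates with LFA-1, measured 20.3 and 16.2 CPM in Tfh cells, against 66.7 and 82.5 CPM in non-Tfh cells (log2 fold change -2.01 ± 0.177, edgeR adjusted p = 0.0025). Cd47, an integrin-associated protein, measured 105 and 89.6 CPM, against 222 and 197 CPM (-1.10 ± 0.136, edgeR adjusted p = 0.00718). Selplg, the selectin ligand PSGL-1, fell with a log2 fold change of -1.34 ± 0.195 (edgeR adjusted p = 0.0134). Cd99l2, an adhesion protein, rose with one of 1.05 ± 0.167 (0.016), a call lost without Tfh T53 (0.074).

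There were 16 genes known to act on integrin genes, through TGF-beta, retinoic acid and Runx factors among others. Of these 15 were tested, 7 fell in Tfh cells, none rose and 8 did not pass (median log2 fold change -0.51). The share called was 46.7%, against 8.49% of all genes tested. Eomes (2 and 2 counts in Tfh cells, against 27 and 13) and Tbx21 (28 and 4, against 103 and 124) were among the 7. Like Prdm1, they passed the count filter through the non-Tfh libraries, so this count and median are a description only. Runx3, which promotes Itgae in T cells, measured 13.7 and 6.11 CPM in Tfh cells, against 56.7 and 80.5 CPM in non-Tfh cells (edgeR adjusted p = 0.0181). Rara, a retinoic acid receptor, measured 10.7 and 16.1 CPM, against 41.6 and 60.2 CPM (log2 fold change -1.95 ± 0.268, edgeR adjusted p = 0.0112). The TGF-beta receptor genes Tgfbr1 and Tgfbr2 did not pass (edgeR adjusted p = 0.792 and 0.845), while the inhibitor Smad7, at 1.51 and 4.89 CPM, against 56.7 and 85.8 CPM, fell (adjusted p = 0.0108).

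Prdm1, which encodes Blimp-1, measured 1.26 and 0.349 CPM in Tfh cells, against 6.78 and 6.41 CPM in non-Tfh cells (edgeR adjusted p = 0.0188), and also passed the count filter through the non-Tfh libraries. Leaving out either non-Tfh library ended the call of Runx3 (edgeR adjusted p = 0.0655 without T32, 0.0977 without T53) and of Smad7 (0.0541 without T32, 0.0681 without T53). With all libraries the log2 fold changes were -2.72 for Runx3, -2.84 for Prdm1 and -4.67 for Smad7. With Tfh T32 left out they were -3.48 for Runx3, -4.18 for Prdm1 and -3.85 for Smad7, and with Tfh T53 left out that of Smad7 was -5.53.

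**Figure D5:**
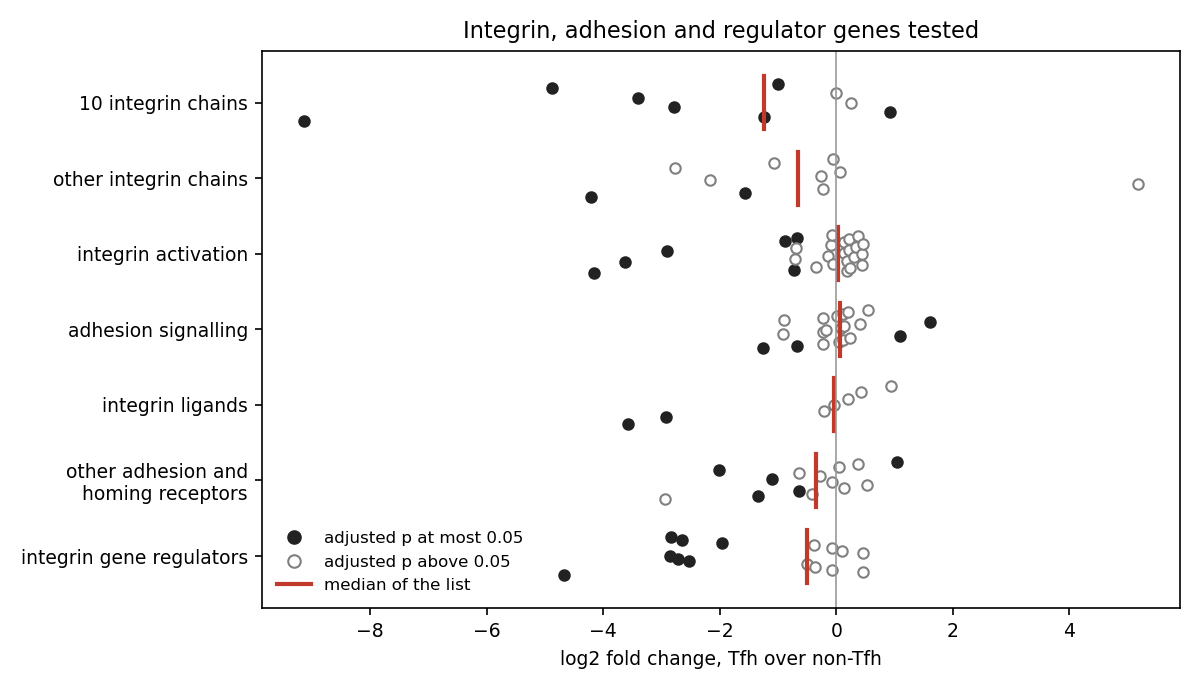
Log2 fold changes of Tfh over non-Tfh for every tested gene of the 7 groups of integrin, adhesion and regulator genes; filled symbols passed an adjusted p of 0.05 and red lines are medians. The medians run from -1.24 for the integrin chains to 0.066 for adhesion signalling. They include genes that passed the count filter through the non-Tfh libraries and are a description only. The leftmost point is the fitted value of Itgae, which is no bound.

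Total counts per library were 12354113 and 5725358 in Tfh T32 and T53, against 13360563 and 8636056 in non-Tfh T32 and T53, so 1 count was worth 0.0749 to 0.175 unscaled CPM. The mitochondrial ribosomal RNA mt-Rnr2 took 13.7 to 18.5% of counts. Of the T cell markers Cd4 measured 1046 and 1062 CPM in Tfh cells, against 927 and 915 CPM in non-Tfh cells, and Cd3e 249 and 279 CPM, against 209 and 231 CPM. Zap70 measured 405 and 454 CPM in Tfh cells, against 224 and 229 CPM in non-Tfh cells. Cd5 went the other way, at 169 and 171 CPM, against 217 and 220 CPM. Cd3d and Lck also lay higher in both Tfh libraries, while Cd3g, Cd28 and Trac overlapped between groups. Of the B cell markers Cd22 measured 139.5 and 134.5 CPM in Tfh cells, against 9.61 and 14.8 CPM in non-Tfh cells. Ebf1 and Blk had no counts in Tfh cells, against 0 and 3 counts of Ebf1 and 0 and 5 counts of Blk in non-Tfh T32 and T53. The labels leave unsaid whether the 2 libraries of a group are from different animals. The p-values therefore set the group difference against the spread between these samples, estimated with information from all genes tested. That spread may be technical.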

How the data were processed

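Per the labels' protocols, RNA of sorted cells was made into stranded total RNA libraries and sequenced in pairs of 75 bases. Per the submitters' processing notes, the tools were HTSeq, TopHat2 and Bowtie2 and the genome was GRCm38 (mm10); versions, annotation release and strand setting are not given in the sources used here. The deposited values are raw counts, whole numbers for 39179 Ensembl identifiers, of which 37607 matched a symbol. Exon lengths, positions and overlaps came from GENCODE M21 on GRCm38.

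Counts were analysed in R 4.3.3 with edgeR 4.0.16: filterByExpr with the group, TMM scaling, robust quasi-likelihood fits of the group alone (2 residual degrees of freedom), two-sided, Benjamini-Hochberg over all 11702 genes tested at 0.05. Of these 994 passed, 523 higher and 471 lower in Tfh cells. CPM are TMM-scaled, and an SE is the size of the log2 fold change divided by the root of F. For a chain with 0 counts in Tfh cells a bound against 3 counts over both libraries is given. For 1 to 3 counts, a pooled ratio with its exact 95% binomial interval is given. Ratios of chains were tested with exact permutations in scipy 1.17.1 (Python 3.11.15, pandas 2.3.3, numpy 2.4.6), and figures were drawn with matplotlib 3.10.9.

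Alternatives were RLE and upper-quartile scaling, library totals alone, DESeq2 1.42.0, limma-voom (limma 3.58.1), no count filter, at least 5 CPM in 2 libraries, no robust option, a replicate block, removal of mitochondrial genes and the 10 most abundant, each library left out (the lone library is then assumed to vary like the other group), and the longest transcript as gene length. The code was tested on simulated data with 200 changed genes. The members, the gene and marker lists and the tests were chosen with earlier results of these data known. Named were all members, other chains that passed or averaged at least 1 CPM, and up to 4 called genes of each other list by p. Tln1, Fermt3, Icam1, Tgfbr1, Tgfbr2, Itga5, Eomes and Tbx21 were named after their values were seen.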

Additional observations from a re-analysis of the deposited data

How the results depend on the processing

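The 9 tested chains gave 123 values under the alternatives, of which 108 kept their side of the threshold, 15 lost a call and no called value changed direction. The number of chains called was 4 with at least 5 CPM in 2 libraries, where 6 were tested, and 2 to 6 with 1 library left out, against 7. All genes called numbered 1986 without a count filter, 2120 with a replicate block and 545 to 884 with 1 library left out, against 994. Other integrin chains called numbered 4 with DESeq2 (1 higher), 5 without a count filter (0 higher) and 5 with a replicate block (1 higher), and 2 to 3 with 1 library left out, against 2. Activation genes called numbered 11 without a filter (3 higher, 8 lower), 14 with a replicate block (5 higher, 9 lower) and 3 to 5 with 1 library left out, against 6. Adhesion signalling genes numbered 7 with a replicate block and 2 to 3 with 1 library left out, against 4, and ligands 1 under the stricter filter and 1 to 2 with 1 library left out, against 2. Other receptors numbered 10 with a replicate block, against 5, and regulators 2 to 6 with 1 library left out, against 7. Among regulators 1 was higher with DESeq2 and under the stricter filter, and 2 without a filter and with the block, against 0. Where an alternative moved a count, the cause was not tested. The 6 chain ratios kept their sign with 1 library left out, and gene length does not enter their difference.

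With the replicate block 7 chains were called, Runx3 was not (edgeR adjusted p = 0.065), and Itgb8 (0.0365) and Itga9 (0.0122) were. Deviations of libraries of the same name correlated across genes (r = 0.37 over 11702 genes), but 2 pairs of libraries do not show that the names pair the samples. The shallowest library, Tfh T53, had 5725358 counts, so chains under about 3 counts in a group cannot be ranked. Chains such as Itgb6 and Itgb2l had 0 counts in all 4 libraries, which limits reads and not protein.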

Other observations

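Itgb8, whose product pairs with alpha V and activates latent TGF-beta, measured 6.20 and 55.5 CPM in Tfh T32 and T53, against 0.745 and 0.899 CPM in non-Tfh T32 and T53. Both Tfh libraries lay above both non-Tfh libraries, and the Tfh libraries differed 8.96-fold. The gene did not pass the test (log2 fold change 5.18 ± 1.35, edgeR adjusted p = 0.103). It passed with DESeq2 (0.00252) but not with limma-voom (0.291) or without a count filter (0.489). With 1 Tfh library left out it passed (6.08 and edgeR adjusted p = 7.46e-05 without T32, 2.93 and 0.0146 without T53), but the spread there comes from the non-Tfh libraries alone, which were alike. Without non-Tfh T32 (0.579) or non-Tfh T53 (0.643) it did not pass. Of the other beta chains Itgb5 measured 1.26 and 2.27 CPM in Tfh cells, against 1.64 and 1.57 CPM in non-Tfh cells, and did not pass (edgeR adjusted p = 0.964).

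Of the other alpha chains, Itga9, a partner of Itgb1, measured 0.586 and 1.92 CPM in Tfh cells, against 4.47 and 5.73 CPM in non-Tfh cells. It did not pass (log2 fold change -2.18 ± 0.552, edgeR adjusted p = 0.0647), but did with DESeq2 (0.0484), without a count filter (7.37e-05) and without Tfh T53 (log2 fold change -3.08, 0.0232). It did not pass with limma-voom (0.0572), without Tfh T32 (-1.39, 0.196), without non-Tfh T32 (0.0896) or without non-Tfh T53 (0.136). Itga3 measured 9.64 and 7.51 CPM in Tfh cells, against 11.02 and 6.74 CPM in non-Tfh cells, and Itga7 measured 12.5 and 5.41 CPM, against 16.2 and 5.62 CPM. Both overlapped between groups and did not pass (edgeR adjusted p = 0.956 and 0.868), and in both groups T32 was the higher library. Itga2b measured 1.26 and 0.699 CPM, against 1.56 and 0.787 CPM, and Itga10 0.922 and 0.524 CPM, against 1.19 and 2.14 CPM, and neither passed (edgeR adjusted p = 0.869 and 0.326).

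Itgal and Itgam lie 0.728 Mb apart on chromosome 7, where Itgax and Itgad follow Itgam. Itgal was higher and Itgam lower in Tfh cells, Itgax had 0 and 1 counts in Tfh cells, against 2 and 16 counts in non-Tfh cells, and Itgad had 1 count in all. On chromosome 2, Itga4 and Itgav lie 4.39 Mb apart, of which Itga4 was lower in Tfh cells and Itgav overlapped between groups.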
